A study of Mus musculus with 4 samples.

Results

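Histone genes were examined in RNA-seq of mouse prostate, comparing normal gland with tumours of the TRAMP model, in which the rat probasin promoter drives the SV40 T antigen in prostate epithelium. The members were every gene named as part of the Hist1 to Hist4 clusters, every gene of the H2af series, and H1f0, H1fx, H3f3a and H3f3b, 82 of the 24319 gene names in the tables. Of these, 68 are clustered genes, taken as the replicative kind (54 in Hist1, 10 in Hist2, 3 in Hist3 and 1 in Hist4). They include the annotated pseudogene Hist3h2bb-ps and the germline genes Hist1h1t, Hist1h2aa and Hist1h2ba. The other 14 are variants at scattered loci. The 2 normal prostates came from wild-type males of 22 weeks, and the 2 tumours from late-stage males of 24 weeks, heterozygous for the transgene. All were F1 animals of C57BL/6 and FVB parents. The tissue was microdissected, total RNA was taken, and no label states that separate mice gave the tumours, so a p-value reflects only the spread of these libraries, which may be technical.

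Histones package DNA into nucleosomes, with H2A, H2B, H3 and H4 in the core and H1 on the linker. Replicative histone genes are transcribed in S phase, have no introns, and give mRNA that ends in a stem-loop bound by the protein Slbp in place of a poly(A) tail. Variant histones are made through the whole cell cycle from genes with poly(A) tails, and replace the replicative kinds outside S phase. A few clustered genes, Hist1h1c, Hist1h2bc and Hist2h2be among them, are also known to give polyadenylated transcripts. Library kits that select poly(A) RNA take up stem-loop mRNA poorly. The kit is named TruSeq V2 in the labels, poly(A) selection is not mentioned in the labels, and its part in the values below was not tested.

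The 2 kinds were told apart by gene name here. The stem-loop, known from replicative histone mRNA, was looked for in the GENCODE M21 transcripts (GRCm38) on the transcribed strand. Its pattern was GG, 2 bases, CT, 4 bases, AG, 2 bases and CC, with the 2 open bases on each side complementary. It was found in 46 of 68 clustered members (67.6%) and in 1 of 14 variants, against 177 of 21877 protein-coding genes (0.809%). A poly(A) signal, AATAAA or ATTAAA, lay close to a transcript end in 17 clustered members (25.0%) and 9 variants (64.3%). The same stem-loop letters, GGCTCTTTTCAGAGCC, were shared by 26 clustered members. Shown here are 5 clustered members that the values below turn on, and the single variant with a match, with the stem-loop in capitals.
Hist2h2aa1: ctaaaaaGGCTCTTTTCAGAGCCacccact
Hist1h1c: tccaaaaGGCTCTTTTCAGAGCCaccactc
Hist2h2ac: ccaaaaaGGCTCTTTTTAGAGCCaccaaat
Hist3h2a: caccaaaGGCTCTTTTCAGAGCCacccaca
Hist3h2ba: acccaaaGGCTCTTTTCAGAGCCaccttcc
H2afx: ccacaaaGGCCCTTTTAAGGGCCaccacct
The capitals lie at chr3:96246032-96246047 on the plus strand for Hist2h2aa1, at chr13:23739512-23739527 (plus) for Hist1h1c and at chr3:96220418-96220433 (minus) for Hist2h2ac. They lie at chr11:58955172-58955187 (plus) for Hist3h2a, at chr11:58949349-58949364 (plus) for Hist3h2ba and at chr9:44335240-44335255 (plus) for H2afx. Hist1h2bc and Hist2h2be had no match, and 11 of the 22 clustered members with none have transcript models that stop at the coding sequence. The authors' gene spans ended within 100 bases of the stem-loop in 44 of 46 clustered members, whereas GENCODE transcripts ran over 100 bases past it in 23. For Hist1h1c the longest GENCODE transcript ran 840 bases past it and the deposited span 4, and for Hist3h2a 1643 and 5, so any fragment from a longer end would lie outside the deposited span.

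Values are FPKM (fragments scaled by transcript length and by library) scaled between libraries to the median gene. Fold changes are tumour minus normal in log2(scaled FPKM + 1), where changes of low genes come out too small, with the standard error (SE) and an adjusted p from limma over the 13162 genes tested at a threshold of 0.05. No counts are in the tables, and implied fragments were worked out from how wide the interval around each FPKM is. Normal libraries held 985509 and 1578847 of them, tumour libraries 1431957 and 1141314. Over all genes 1296 were higher and 1088 lower in tumours, 18.1% of those tested. Scaling set that split, since with FPKM as deposited it was 3681 and 427, and scaled to the FPKM sum without the largest genes it was 2537 and 554. The shift between the scaled and deposited values was 0.94 on the log2 scale. With normal 1 left out, and with normal 2 left out, limma called 0 genes of any kind, while 2434 and 2354 genes had an unadjusted p under 0.05, so no call below outlasts the loss of either normal library.

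The number of implied fragments per gene differed sharply between the kinds of histone gene. Of the 14 variants, 10 reached at least 10 implied fragments in some library, but only 6 of the 68 clustered members did. Among members tested these were all 10 variants and 6 of 48 clustered genes. Of the clustered members, 27 stayed under 1 fragment in every library. The share over all genes was not counted. Those 6 were Hist1h1c, Hist1h2bc, Hist2h2aa1, Hist2h2be, Hist3h2a and Hist3h2ba, and they held 71.0 to 79.1% of the clustered fragments of a library. The clustered genes together had 110 and 285 implied fragments in normal gland and 99.1 and 168 in the tumours. The variants had 1289 and 1903 in normal gland and 10524 and 5420 in the tumours.

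**Figure D1:**
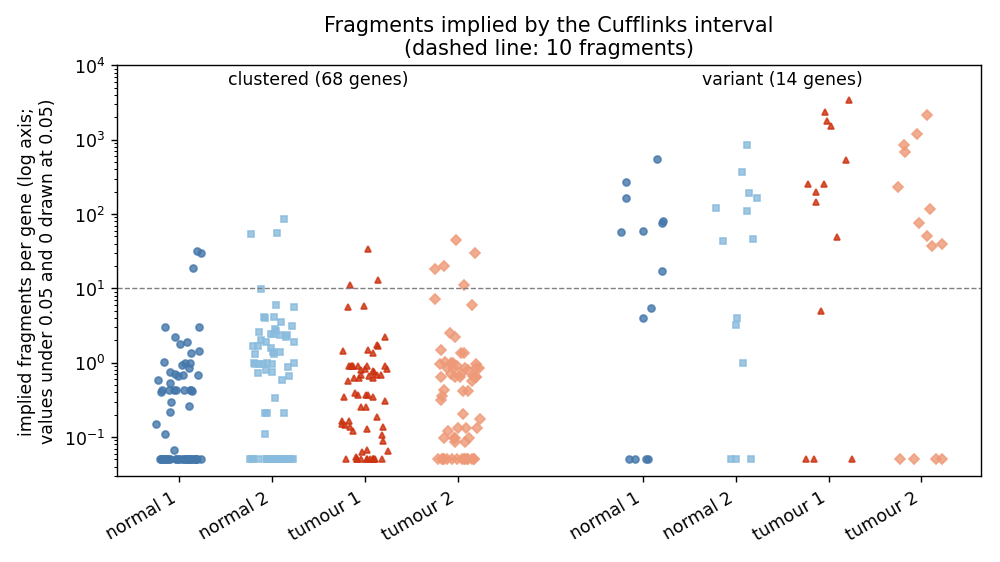
Implied fragments of each histone gene in each library, on a log axis, with each point 1 gene, clustered genes on the left and variants on the right. Few clustered points pass the dashed line at 10 fragments, while most variants lie above it in all 4 libraries.

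Variant histone genes mostly lay higher in the tumours. Of 14 variants, 10 were tested, 6 were higher, 1 was lower and 3 did not pass. Among all genes tested, 9.85% were called higher and 8.27% lower. The median log2 fold change of the 10 was 1.39, against 0.07 over all genes tested. In 9 of the 10 both tumours lay above both normal prostates, which held for 37.7% of all genes tested, and in H2afj both lay below, which held for 33.3%. H2afb1, H2afb2 and H2afb3, short H2A variants known from testis, were listed at 0 in every library. H2afy3 was listed at 0 in normal 1 and tumour 2, lay at 0.369 in normal 2 and 1.21 in tumour 1, and was not tested. The 6 higher calls came down to 2 with a pseudocount of 0.1 (9.92% of all genes higher), 1 with no filter on low values (1.44%) and 3 by voom on the implied fragments (7.95%). They were 8 on FPKM as deposited, where 28.0% of all genes were higher. Of the 10, 7 overlap a gene model on the opposite strand in GENCODE, and a strand setting for the counting is not named in the labels.

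**Figure D2:**
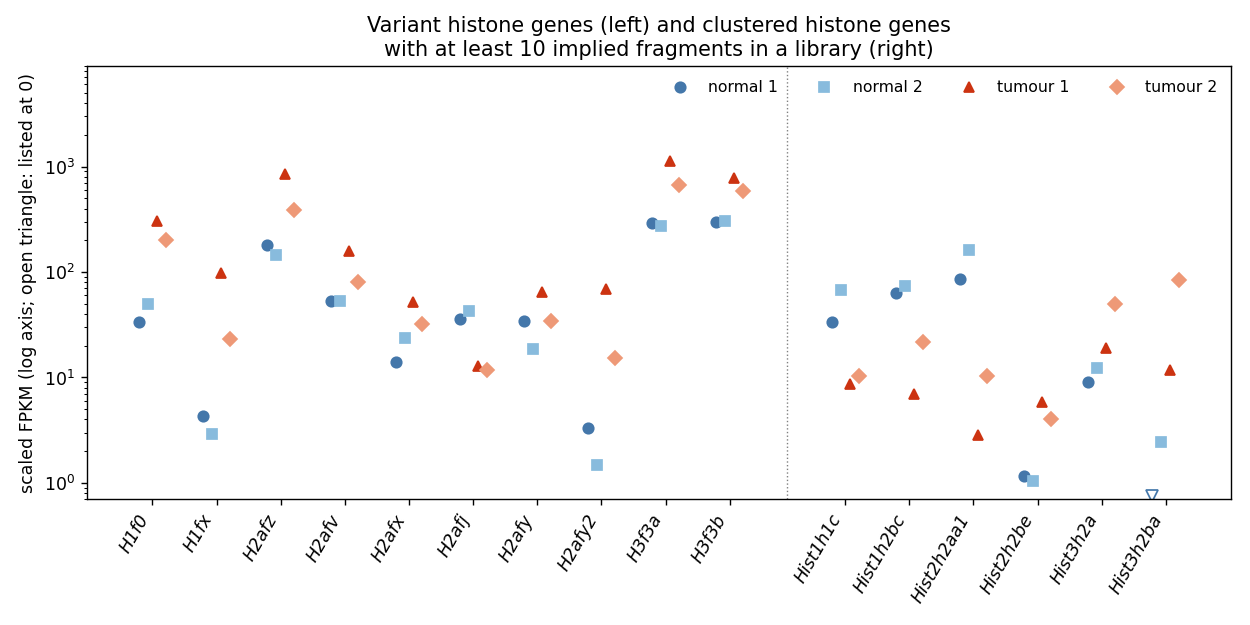
Scaled FPKM per library on a log axis for the 10 variants tested and the 6 clustered genes with at least 10 implied fragments; the open triangle marks a value listed at 0. Tumours (triangles, diamonds) lie above the normal prostates (circles, squares) in every variant drawn except H2afj, and below them in Hist1h1c, Hist1h2bc and Hist2h2aa1.

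The linker variants rose. H1f0, the replacement linker histone known from cells that have left the cycle (chr15:79028212-79030500), had a scaled FPKM of 33.9 and 49.2 in normal gland and 305 and 200 in the tumours. The groups were far apart, 5.92-fold (log2 fold change 2.57, SE 0.35, adjusted p = 0.0219). H1f0 was the only variant higher under each other scaling, pseudocount, filter and test tried. H1fx, a linker variant on chromosome 6, went from 4.33 and 2.93 to 98.4 and 23.2. It rose (log2 fold change 3.42, SE 0.74, adjusted p = 0.0424), with tumour 1 far above tumour 2 and only 4.0 implied fragments in each normal library. The call was lost with a pseudocount of 0.1, with no filter and by voom.

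Among the H2A variants, H2afz, H2afy2 and H2afj passed the test. H2afz encodes the more abundant of the H2A.Z forms, which sit beside transcription start sites (chr3:137864487-137866922). Its scaled FPKM was 179 and 144 in normal gland and 856 and 391 in the tumours, and it rose (log2 fold change 1.84, SE 0.43, adjusted p = 0.0493), lost in the same 3 settings as H1fx. Its paralog H2afv had 53.6 and 53.0 against 158 and 79.8 and did not pass (1.06, SE 0.39, adjusted p = 0.115). Both tumours lay above both normal prostates in each of the H2A.Z genes, and tumour 1 was the higher in both.

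The macroH2A genes encode H2A with a large extra domain and are known from silent chromatin. H2afy2 (chr10:61738647-61783864) had a scaled FPKM of 3.35 and 1.48 in normal gland and 69.7 and 15.4 in the tumours. It rose (log2 fold change 3.37, SE 0.80, adjusted p = 0.0499), on 5.4 and 3.2 implied fragments in the normal libraries, and lost the call in the same settings as H1fx. Aifm2 lies on the opposite strand within this locus and had 4.13 and 3.91 in normal gland and 2.57 and 5.84 in the tumours. H2afy, the other macroH2A gene, had 34.2 and 18.7 against 64.5 and 34.6, with the lower tumour barely above the higher normal library (0.87, SE 0.47, adjusted p = 0.226).

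H2afj was the only variant that fell. This H2A variant, known to accumulate in senescent cells (chr6:136808248-136810074), had a scaled FPKM of 35.6 and 43.1 in normal gland and 12.7 and 11.7 in the tumours, and it fell (log2 fold change -1.61, SE 0.30, adjusted p = 0.0336). The replicates of each group lay close together. The fall kept its direction under the other scalings but did not pass there, with -0.71 on FPKM as deposited and -0.98 scaled to the FPKM sum, nor with no filter. H2afx, the variant that is phosphorylated at DNA breaks and the only one here with a stem-loop, had 14.1 and 23.7 against 51.9 and 32.0 and did not pass (1.12, SE 0.42, adjusted p = 0.118).

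H3f3a and H3f3b, which encode the same replacement H3, were the strongest histone genes in both normal prostates and in tumour 2, and in tumour 1 H2afz lay between them. With H2afz they held 78.4 to 81.1% of the variant FPKM of a library. H3f3a (chr1:180802568-180813603) had a scaled FPKM of 293 and 271 in normal gland and 1122 and 675 in the tumours, and rose (log2 fold change 1.62, SE 0.32, adjusted p = 0.0366). H3f3b (chr11:116021961-116024504) had 297 and 304 against 780 and 580, and rose by 1.16 (SE 0.26, adjusted p = 0.0439). Both lost the call with no filter, and H3f3b also with a pseudocount of 0.1. Their coding sequences are 76.7% identical over 408 bases.

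Clustered histone genes did not share the rise. Of the 68, 48 were tested, of which 2 were higher (background 9.85%), 5 lower (background 8.27%) and 41 did not pass. Both higher calls, Hist3h2bb-ps and Hist1h3c, were listed at 0 in each normal library and were tested only because of their tumour values. The median log2 fold change of the 48 was -0.74, against 0.07 over all genes tested, and 35 were negative. Both tumours lay above both normal prostates in 7 (37.7% of all genes tested) and below in 22 (33.3%), and the groups overlapped in 19. On FPKM as deposited these were 11 above (59.4% of all genes) and 11 below (14.5%). There the median was -0.04 against 0.86 over all genes, with 7 higher (28.0% of all genes) and 1 lower (3.24%), so the number of falls depends on the scaling. Without tumour 2 there were 12 lower calls among 34 tested, near the 30.8% of all genes in that fit. The filter took 9 of the 48 through the tumours alone and 1 through the normal prostates alone. Of the 20 not tested, 4 were listed at 0 in every library (Hist1h1b, Hist1h1t, Hist2h4 and Hist4h4). At an unadjusted p under 0.05, 7 of the 48 were higher (21.5% of all genes) and 11 lower (18.3%).

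**Figure D3:**
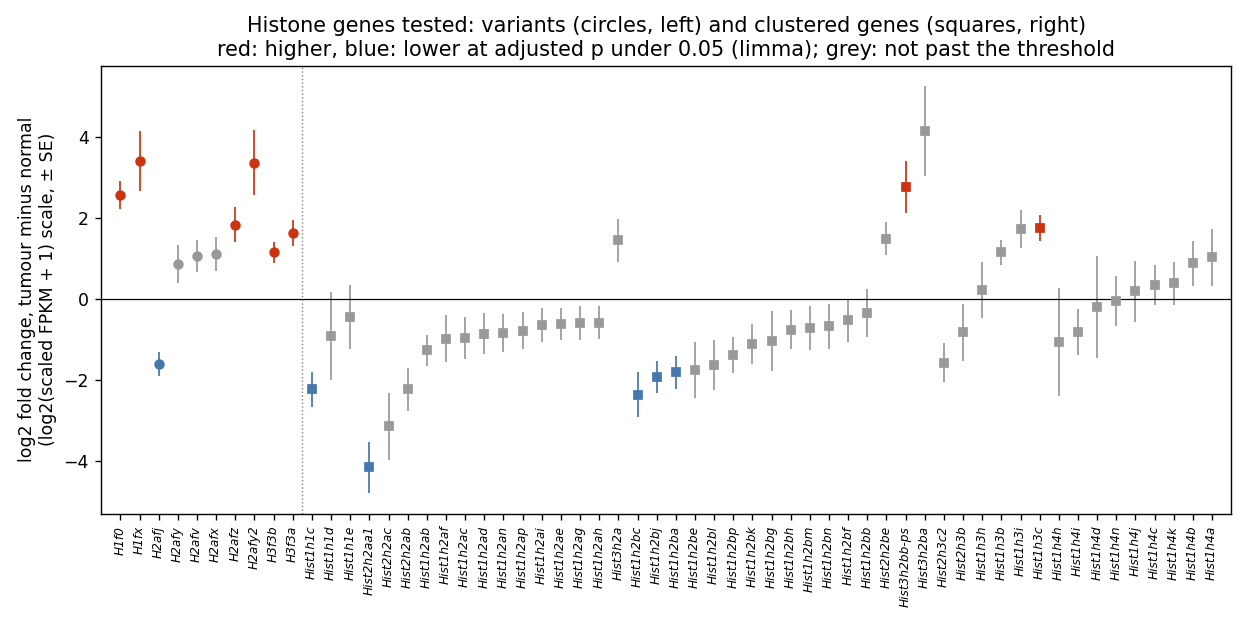
Log2 fold change, tumour minus normal, with its standard error for the 58 histone genes tested, ordered by kind, class and size. Variants (circles) lie above 0 except H2afj, while H2A and H2B genes of the clusters (squares) lie below 0 apart from Hist3h2a, Hist2h2be, Hist3h2bb-ps and Hist3h2ba; on FPKM as deposited 3 of the H2A and 2 of the H2B genes of Hist1 turn positive.

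Of the 6 clustered H1 genes, only Hist1h1c reached 10 implied fragments. Its scaled FPKM was 33.8 and 67.8 in normal gland and 8.68 and 10.2 in the tumours, on 18.9, 55.0, 11.0 and 11.0 implied fragments (chr13:23738807-23739531). It fell (log2 fold change -2.23, SE 0.43, adjusted p = 0.0352), and the call was lost under the other scalings, with no filter and by voom. Hist1h1d and Hist1h1e were listed at 0 in normal 1 and did not pass. Hist1h1a was seen in normal 2 alone (1.16), and Hist1h1b and the testis gene Hist1h1t were listed at 0 in every library.

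Among 18 clustered H2A genes, 14 were tested and 1 was called, against 18.1% of all genes. Hist2h2aa1, listed at both chr3:96239779-96240334 and chr3:96245497-96246052, was the strongest clustered gene of both normal prostates. Its scaled FPKM was 86.7 and 161 there and 2.84 and 10.4 in the tumours, on 32.0, 86.3, 1.5 and 7.2 implied fragments. It was 18.0-fold lower (log2 fold change -4.17, SE 0.64, adjusted p = 0.0258), and passed under both other scalings, with a pseudocount of 0.1 and by voom, but not with no filter. Hist2h2aa2 is listed at the same loci and was near 0, so the pair cannot be told apart by fragments. The neighbouring Hist2h2ac had 11.6 and 24.6 against 0 and 3.06 (-3.15, SE 0.82, adjusted p = 0.0587), and Hist2h2ab 3.83 and 7.58 against 0 and 0.857 (-2.24, SE 0.54, adjusted p = 0.0510). Both lay lower in both tumours without passing.

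Hist3h2a had a positive fold change. Its scaled FPKM was 9.12 and 12.3 in normal gland and 19.0 and 49.3 in the tumours, on 3.0, 6.0, 13.1 and 30.2 implied fragments, and it did not pass (1.45, SE 0.54, adjusted p = 0.116). Trim17 overlaps it on the same strand and was listed at 0 in 3 libraries and at 0.658 in tumour 2. The 13 H2A genes of Hist1 were all faint, with Hist1h2ap the highest at 8.13 in normal 2. Their 10 tested members were all negative, between -1.27 and -0.59, but on FPKM as deposited 3 turned positive, and none passed as reported. Their coding sequences are near copies, with a median identity of 96.7% among the 15 clustered H2A genes of 390 coding bases. In normal 1, 7 of the 13 had the same 0.4 implied fragments and in tumour 1, 7 had the same 0.9. The separate values of such near copies are uncertain, and these members do not count as separate observations.

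Among 19 clustered H2B genes, 16 were tested, 3 were lower (8.27% of all genes) and 1 was higher (9.85%). Hist1h2bc (chr13:23684199-23692480) had a scaled FPKM of 63.3 and 74.4 in normal gland and 6.99 and 21.8 in the tumours, on 30.4, 54.7, 5.6 and 18.3 implied fragments. It fell (log2 fold change -2.37, SE 0.56, adjusted p = 0.0493), which was lost under every other scaling, pseudocount, filter and test. Hist1h2bj (4.90 and 6.22 against 0.669 and 0.738) and the germline gene Hist1h2ba (3.49 and 4.90 against 0.660 and 0.286) also passed, on at most 1.41 implied fragments in any library. Both calls were lost under the other scalings, with no filter and by voom, and that of Hist1h2ba also with a pseudocount of 0.1. The 12 tested Hist1 H2B genes other than Hist1h2bc were all negative, but 2 turned positive on FPKM as deposited, 1 scaled to the FPKM sum and 2 without tumour 1. Like H2A they are near copies, with a median coding identity of 94.7% among 14 clustered H2B genes. Hist1h2be had 2.86 and 11.0 against 0.617 and 1.52 and Hist1h2bl 3.11 and 10.3 against at most 1.40, while Hist1h2bg overlapped between the groups (4.59 and 8.86 against 0.922 and 5.69).

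The 3 tested H2B genes outside Hist1 had positive fold changes. Hist3h2ba (chr11:58948911-58949372) was listed at 0 in normal 1 and lay at 2.42 in normal 2, 11.9 in tumour 1 and 84.0 in tumour 2, on 0, 1.0, 5.7 and 44.3 implied fragments. It was the strongest clustered gene of tumour 2 and did not pass (4.16, SE 1.11, adjusted p = 0.0607). Hist3h2bb-ps, an annotated pseudogene of the same cluster, was listed at 0 in each normal library and had 2.87 in tumour 1 and 11.1 in tumour 2, on 1.4 and 6.0 fragments (adjusted p = 0.0472). With a tumour left out, neither it nor Hist1h3c was tested. Hist2h2be, among the genes known to give polyadenylated transcripts, had 1.16 and 1.04 against 5.90 and 4.02, on 3.0, 4.0, 33.5 and 20.0 fragments (1.49, SE 0.41, adjusted p = 0.0648). Of the 3 genes with known polyadenylated forms, Hist1h1c and Hist1h2bc were thus lower in both tumours and Hist2h2be was higher in both. The deposited span of Hist1h1c ends 4 bases past its stem-loop, so any longer end of its transcripts lies outside its values.

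Clustered H3 and H4 genes were at the edge of detection. No H3 or H4 member reached 10 implied fragments in any library. Hist1h3c, listed at 0 in each normal library, had 2.16 in tumour 1 and 2.62 in tumour 2, both on under 1 implied fragment, so that no fold is given although it passed (adjusted p = 0.0342). Hist2h3c2 had 3.43 and 7.02 against 0.766 and 1.25 and did not pass (adjusted p = 0.0799). Of 9 Hist1 H4 genes tested, 5 were positive, 4 negative and none passed. The groups overlapped in all 9 as scaled here. On FPKM as deposited both tumours lay above both normal libraries in 4 of the 9, against 59.4% of all genes tested. Hist1h4h was listed at 0 in normal 1, lay at 15.1 in normal 2 and at 1.07 and 0.760 in the tumours, and Hist1h4i had 6.16 and 13.0 against 3.05 and 6.94. The summed clustered H4 level was 9.91 and 51.3 in normal gland and 20.4 and 26.0 in the tumours, so the normal libraries bracketed the tumours, while on FPKM as deposited tumour 2 (39.1) lay above normal 2 (35.3).

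Summed over members, the clustered share of histone FPKM was lower in both tumours. The variants added up to a scaled FPKM of 948 and 912 in normal gland and 3519 and 2042 in the tumours. The clustered genes added up to 298 and 545 in normal gland and 119 and 278 in the tumours, with both tumours below both normal prostates. That separation depends on the scaling, since on FPKM as deposited the sums were 236 and 375 against 160 and 417, and scaled to the FPKM sum 248 and 434 against 153 and 360. Clustered genes held 23.9% and 37.4% of histone FPKM in normal gland and 3.28% and 12.0% in the tumours, a share that no scaling between libraries can change. The shares did not overlap, but 2 libraries against 2 cannot give an exact two-sided permutation p below 0.333, so no test was made. On implied fragments the clustered sum of tumour 2 (168) lay between those of the normal prostates (110 and 285).

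**Figure D4:**
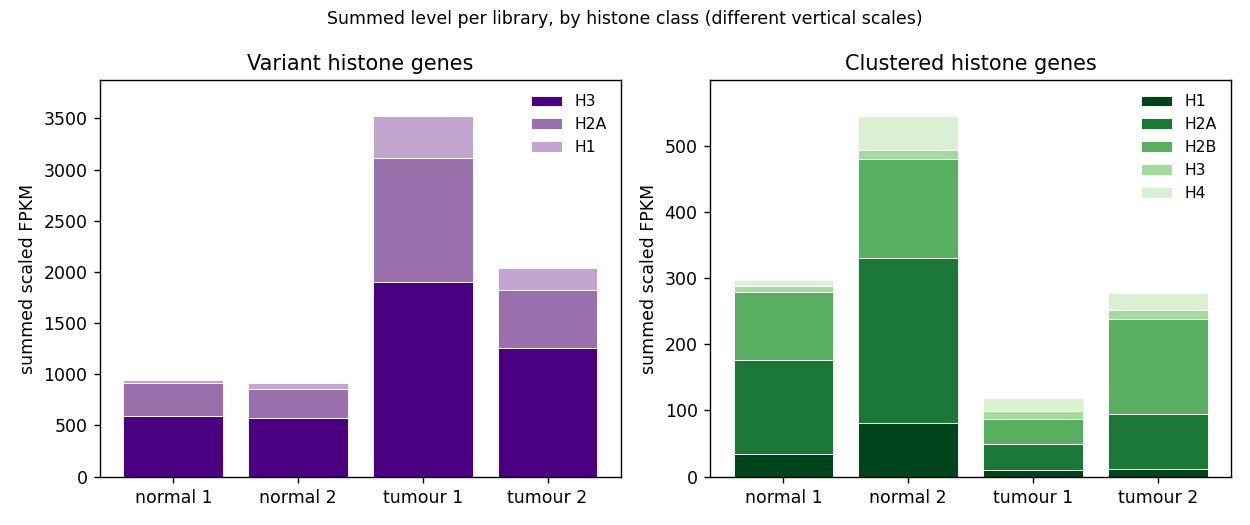
Summed scaled FPKM per library, stacked by histone class, for variants (left) and clustered genes (right), with different vertical axes that start at 0. The variant sum is 3519 and 2042 in the tumours against 948 and 912, and the clustered sum is 119 and 278 against 298 and 545, with H1 and H2A lower in both tumours; on FPKM as deposited the clustered sum of tumour 2 (417) is the highest of the 4 and its H2A sum (124) lies above that of normal 1 (113).

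The share was lower in both tumours in each class that has variants here. Clustered genes held 46.9% and 60.7% of H1 FPKM in normal gland and 2.28% and 5.07% in the tumours. For H2A the shares were 30.8% and 46.8% against 3.21% and 12.8%. For H3 they were low throughout, 1.33% and 2.28% against 0.646% and 0.980%. The clustered H3 sum itself was not lower in both tumours, with a scaled FPKM of 7.97 and 13.4 against 12.4 and 12.4. It rested on 2.47, 7.13, 5.49 and 4.40 implied fragments. On FPKM as deposited it was higher in both tumours, 6.32 and 9.26 against 16.6 and 18.7. The variant H3 sum had a scaled FPKM of 590 and 575 against 1902 and 1255. The leading clustered genes changed as well. Hist2h2aa1, Hist1h2bc and Hist1h1c held 61.8% and 55.7% of the clustered FPKM in the normal prostates. In the tumours Hist3h2a and Hist3h2ba took the first places by scaled FPKM, though neither passed the test. By implied fragments Hist2h2be lay above both in tumour 1.

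Many clustered H2A and H2B genes stand head to head and share the stretch between their starts. Among the members 13 such pairs were found, with 172 to 305 bases between, and 9 had both genes tested. Both were negative in 7 pairs, and both positive in 1, Hist3h2bb-ps with Hist3h2a. Pairs with both negative were also 7 scaled to the FPKM sum, and 3 on FPKM as deposited with 5 of opposite sign. Of the tested clustered genes, 13 of 14 H2A and 13 of 16 H2B were negative, so such pairs say little about a link between partners. As scaled here, the pair with opposite signs was Hist2h2ac and Hist2h2be, 238 bases apart. The RefSeq promoter of Hist2h2ac (GRCm38.p6, chr3:96220831-96221130, minus strand), which spans that stretch, is shown because its 2 genes lay on opposite sides, with CCAAT and TATAAA on either strand in capitals. The promoter of H2afz (chr3:137864237-137864536, plus strand) is shown as a variant that rose.
Hist2h2ac: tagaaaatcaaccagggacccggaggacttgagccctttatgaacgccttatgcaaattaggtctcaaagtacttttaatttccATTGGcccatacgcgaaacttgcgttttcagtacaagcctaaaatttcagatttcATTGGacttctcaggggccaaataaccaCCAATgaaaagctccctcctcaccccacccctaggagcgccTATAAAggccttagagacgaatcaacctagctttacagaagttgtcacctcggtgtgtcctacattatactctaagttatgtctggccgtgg
H2afz: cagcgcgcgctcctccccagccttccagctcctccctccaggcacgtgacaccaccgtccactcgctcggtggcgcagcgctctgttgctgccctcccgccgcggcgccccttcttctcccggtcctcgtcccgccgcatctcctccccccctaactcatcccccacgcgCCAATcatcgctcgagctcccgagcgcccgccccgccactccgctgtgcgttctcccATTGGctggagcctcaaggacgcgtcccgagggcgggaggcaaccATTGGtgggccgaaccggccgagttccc
Hist2h2ac held 3 CCAAT and 1 TATAAA, and H2afz 3 CCAAT and 0 TATAAA. The 68 clustered members matched 56 distinct RefSeq promoters, with Hist1h2ao and Hist1h2ap assigned the same one, and the 14 variants matched 12. On either strand CCAAT was present in 85.7% of the clustered and 66.7% of the variant promoters, against 37.9% of all 27025, and TATAAA in 58.9% and 8.33%, against 14.2%. ATTTGCAT, the octamer known from H2B promoters, was present in 23.2% of clustered and 8.33% of variant promoters, against 1.75% of all. A match describes letters only and is no binding site.

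Genes of histone mRNA synthesis mostly lay higher in the tumours, although few passed the test. Of 12 genes of histone transcription and 3′ end processing, all tested, 2 were higher (9.85% of all genes), none was lower (8.27%) and the median log2 fold change was 1.20. Slbp, which binds the stem-loop, had a scaled FPKM of 15.4 and 10.5 in normal gland and 101 and 43.3 in the tumours (2.29, SE 0.50, adjusted p = 0.0431). Casp8ap2, a component of the histone locus body, had 2.35 and 1.14 against 13.7 and 9.68 (2.23, SE 0.46, adjusted p = 0.0398). Npat, the coactivator of replicative histone genes, had 2.48 and 1.94 against 8.04 and 4.63 and did not pass (1.16, SE 0.45, adjusted p = 0.130). With no filter on low values neither call held, and on FPKM as deposited 8 of the 12 were higher (28.0% of all genes).

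Of 12 chaperones of replication-coupled assembly, 7 were higher (9.85% of all genes) and none lower (8.27%), with a median of 1.74. Chaf1b and Tonsl were tested only because of their tumour values. The 7 were Chaf1a and Chaf1b of the CAF-1 complex (log2 fold changes of 2.56 and 3.40), Asf1b (3.63), Nasp (2.76), Ssrp1 of the FACT complex (1.40), Tonsl (2.66) and the H2A-H2B carrier Nap1l1 (2.09). Of 17 chaperones and remodellers of variant histones, 5 were higher and none lower, with a median of 0.72, and 3 of the 5 were tested only because of their tumour values. The shares over all genes are the same as above. Cenpa, the centromeric H3 itself, had a scaled FPKM of 1.84 and 1.25 against 100 and 45.5 (4.76, SE 0.50, adjusted p = 0.0195). Its loading factors Hjurp and Oip5 were also called higher, which is no support where tumour values alone brought a gene into the test. Anp32e, which removes H2A.Z, rose by 2.34 (SE 0.50, adjusted p = 0.0420). Daxx, a chaperone of the replacement H3, had 21.1 and 28.4 against 9.55 and 6.13 and did not pass (-1.56, SE 0.39, adjusted p = 0.0535). With no filter the higher calls came down to 2 and 2 in these lists, and by voom to 4 and 3.

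Most S phase genes rose in the tumours. Of 19 genes of replication and proliferation, 15 were higher (9.85% of all genes), none was lower (8.27%) and the median log2 fold change was 3.76. Of the 15, 3 were tested only because of their tumour values. Pcna, the replication clamp, had a scaled FPKM of 24.6 and 32.5 in normal gland and 601 and 262 in the tumours (3.76, SE 0.46, adjusted p = 0.0208). Mki67, the proliferation marker, had 2.83 and 0.894 against 101 and 49.8 (4.74, SE 0.56, adjusted p = 0.0204). The 19 genes summed to a scaled FPKM of 102 and 85.0 in normal gland and 1876 and 997 in the tumours. The clustered share of histone FPKM ran in the reverse order over the 4 libraries. That order largely repeats the split between the groups, the variant sum in the share also rose, and any relation was not tested.

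Sums of the cell type marker lists separated the groups, except for smooth muscle and fibroblast genes, where the tumours lay on both sides. The summed level of 5 prostate secretory and luminal genes was 9602 and 8814 in normal gland and 1.57 and 710 in the tumours, with Krt8 at 0.258 and Krt18 at 0.345 in tumour 1 against 438 and 255 in tumour 2. The summed level of 5 neuroendocrine genes was 0.408 and 0.665 against 423 and 762, and all 5 passed the filter through the tumours alone. The 4 smooth muscle and fibroblast genes summed to 141 and 123 against 29.3 and 215, and the 4 leukocyte genes to 2.26 and 0 against 13.3 and 32.8, with Cd79a at 0 in every library. The 3 red blood cell genes summed to 40.3 and 23.2 against 503 and 532, nearly all of it Hba-a1 in the tumours. Alas2 was 2.15 and 4.0 against 2.15 and 3.37, and Hbb-bs, not tested, 6.91 and 0.0652 against 0.0292 and 0.0398. Their part in the histone values was not tested, and in bulk tissue fewer cells of a type and less RNA per cell cannot be told apart.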

How the data were processed

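RNA of 2 normal prostates and 2 TRAMP tumours was sequenced, and the authors deposited 1 Cufflinks gene table per library in FPKM, with interval bounds. Per the submitters' processing notes, the build was mm10 (GRCm38) and the tools were TopHat2 2.0.8, Cuffdiff 2.1.1, Cufflinks 2.1.1 and Trim Galore. Annotation, strand setting and scaling are not given in the labels. FPKM were summed by gene name, and 27 rows whose names had become dates were dropped. Libraries were divided by median-of-ratios factors (0.793, 0.689, 1.34 and 1.50) over the 11469 genes above 0 in all 4. Genes with FPKM of at least 1 in at least 2 libraries were tested on log2(scaled FPKM + 1), pseudocount 1, by limma 3.58.1 (R 4.3.3) with an intensity trend, two-sided, with Benjamini-Hochberg adjustment. The fit had 2 residual degrees of freedom, and the prior added 2.85. Implied fragments are the squared ratio of FPKM to its standard deviation, taking each side of the interval as 2 standard deviations. The fit was also run on simulated normal values with the same spread for every gene. That checks the code and not how the fit treats members with few fragments. Sequences and matches were read with Python 3.11.15 (pandas 2.3.3, numpy 2.4.6, matplotlib 3.10.9) from GENCODE M21 and RefSeq. Deposited starts were shifted to count from 1.

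The members, gene lists and tests were chosen with earlier results of these data known. Genes named were all variants, every clustered member past the threshold or averaging at least 5 scaled FPKM in a group, those highest in a class or known for polyadenylated or germline forms, the called genes of the processing and chaperone lists (1 is not reported here), and Slbp, Npat, Cenpa, Mki67 and Pcna. Daxx, Hist1h1a, Trim17, Aifm2 and the markers are named for context, chosen after their values were seen. Alternatives were 2 other scalings, a pseudocount of 0.1, no filter, voom on the implied fragments and leaving out each library.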

Additional observations from a re-analysis of the deposited data

How the results depend on the processing

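Counts of higher calls are given in the order clustered genes, variants, mRNA synthesis and processing, replication-coupled chaperones, variant chaperones and S phase genes. They were 2, 6, 2, 7, 5 and 15 as reported. On FPKM as deposited they were 7, 8, 8, 10, 8 and 18, scaled to the FPKM sum less genes above 1% 6, 8, 7, 9, 6 and 17, and with a pseudocount of 0.1 4, 2, 1, 5, 4 and 14. With no filter they were 0, 1, 0, 2, 2 and 11, and by voom on the implied fragments 0, 3, 1, 4, 3 and 13. Leaving out 1 library gave ranges of 0 to 2, 0 to 9, 0 to 8, 0 to 9, 0 to 5 and 0 to 16, with the 0 in each case from limma without a normal library. Without normal 1 the median log2 fold change was -1.18 for clustered genes, 1.43 for variants and 0.03 over all genes tested. Without normal 2 these were -0.42, 1.49 and 0.05. Lower calls were 5 among clustered genes and 1 among variants. They were 1 and 0 as deposited, 1 and 0 scaled to the FPKM sum, 3 and 1 with the smaller pseudocount, 0 and 0 with no filter and 1 and 1 by voom. Leaving out 1 library gave 0 to 12 and 0 to 1. At an unadjusted limma p under 0.05 with no filter, 12 of 64 clustered genes and 1 of 11 variants were lower, against 14.3% of all genes. Over all genes 1296 were higher and 1088 lower. As deposited they were 3681 and 427, scaled to the FPKM sum 2537 and 554 and with no filter 245 and 249, and leaving out 1 library gave 0 to 2170 and 0 to 3405.

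The log2 ratio of the summed clustered level, tumour to normal, was -1.15 as reported and -0.20 as deposited, and the summed variant level 1.53 as reported, 2.47 as deposited, 2.19 scaled to the FPKM sum and 2.27 on implied fragments. The clustered ratio ran from -1.74 to -0.46 and the variant ratio from 1.21 to 1.94 when 1 library was left out. The ratio of clustered to variant level was -2.67 and lay between -3.67 and -1.67 in those fits. Among the 29 named members tested, 164 of the alternative values kept direction and side of the threshold, 64 lost the call, 24 gained it and 1 changed sign, Hist1h4h without normal 2 (-1.07 as reported, and from -3.18 to 1.02 with 1 library left out). The cause of these changes was not tested. No paired analysis was possible because the labels give no replicate numbers shared by the groups. Few fragments limit what can be read from the clustered genes, of which 62 never reached 10 implied fragments. Why they had so few was not tested.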
